A study of Homo sapiens with 12 samples.

Results

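The genes described here are 42 genes of the NRF2 and antioxidant system: the regulators of NRF2, the enzymes that make and use glutathione, the thioredoxin and peroxiredoxin systems, and the superoxide dismutases and catalase. They were chosen by name, with earlier results of these data known, and are 42 of the 58735 genes in the deposited table. Of these, 41 passed the filter used for testing, a mean of at least 1 FPKM (fragments relative to gene length and library size, a level that can be compared between genes) over the 12 libraries. The member below it was OSGIN1, an oxidative stress-induced growth inhibitor, with 19 to 49 reads per library.

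The libraries were made from hCMEC/D3 cells, a human line of immortalised endothelium from brain microvessels used to model the blood-brain barrier in culture. Of the 3 groups of 4 libraries, the control group is labelled untreated, and the others received SiNPs, taken here to be silica nanoparticles, of 35 nm or 58 nm. Both sizes were given at 100 µg/mL for 24 h, and all groups share the line and the culture medium. The labels name no vehicle for the controls and no separate cultures behind the libraries, so the p-values rest on the spread of these libraries alone, and that spread may be technical only. The 3 comparisons ask which members differed with either particle, and whether the particle sizes differed from each other. They share libraries, the controls above all, and are therefore not independent of each other.

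NRF2, encoded by NFE2L2, is a transcription factor that KEAP1 binds in the cytoplasm and directs to degradation. Oxidants and electrophiles modify KEAP1, NRF2 then accumulates, pairs with small MAF proteins and activates genes that carry the antioxidant response element, while BACH1 represses the same element. The targets include enzymes that make glutathione, reduce quinones, break down haem, reduce thioredoxin and supply NADPH. Since NRF2 is controlled mainly through protein stability, its own mRNA is not a measure of its activity.

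Gene reads numbered 9472317 to 10678269 per library, and 3 reads in a gene of 1 kb correspond to 0.274 to 0.313 FPKM. Of 12 endothelial markers, 7 had a mean of at least 1 FPKM, CDH5, PECAM1, VWF and ENG among them, whereas the barrier claudin CLDN5 and the receptor KDR were at or near 0. Their summed level was 114 to 122 FPKM in the control libraries, 105 to 117 in those at 35 nm and 112 to 125 in those at 58 nm. Most of that sum was ENG, with means of 103, 93.4 and 99.9 FPKM in these groups. In controls, CDH5, PECAM1 and VWF had means of 1.44, 1.42 and 1.02 FPKM, and TEK, ERG and EMCN were below 1 FPKM. The pericyte markers PDGFRB and CSPG4 had 24.0 and 14.3 FPKM there. The leukocyte marker CD14 averaged 1.04 FPKM for both the control and the 58 nm groups, but 0.641 for the 35 nm group. Over all 12 libraries, no leukocyte, astrocyte or neuron marker reached a mean of 1 FPKM. Of 6 pericyte or smooth muscle markers, 3 did (summed level 38.1 to 43.5 FPKM over all libraries), and of 5 epithelial markers the 3 keratins did. The epithelial sum was 51.8 to 55.8 FPKM for the control group, 41.1 to 49.3 at 35 nm and 45.6 to 54.5 at 58 nm, with EPCAM and CDH1 at or near 0, and its part in the results was not tested. Libraries also differed in how expression, relative to the other libraries, followed GC content across genes: Spearman's rho was -0.457 to -0.231 for the controls and 0.151 to 0.555 for the 35 nm group. In the 58 nm group it was 0.358 in library 1 and -0.296 to -0.094 in the other libraries. Library 1 of the 58 nm group also stood apart in its relation to gene length, with a rho of -0.319 where the others had 0.09 to 0.164. GC content and exposure thus move together between control and 35 nm, and each call of a member that changes when the length and GC trends are removed is given both ways. Calls of single genes outside the members are given without that removal. In bulk libraries, fewer cells of a type and less RNA per cell cannot be told apart.

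Exposure to 35 nm particles went with higher mRNA of many antioxidant enzymes. On the log2(FPKM + 1) scale, mitochondrial superoxide dismutase SOD2 led at 2.04-fold, followed by aldose reductase AKR1B1 at 1.57-fold. This scale understates the change of low genes: SRXN1 had means of 0.957 FPKM in controls and 1.74 at 35 nm, and 1.4-fold on it. Of the 41 members tested, 20 rose and 1, NFE2L2 itself, fell (limma with Benjamini-Hochberg adjustment, adjusted p under 0.05). That is 48.8% of members called higher and 2.44% called lower, where 20.2% of all 12176 genes tested were called higher, 15.2% lower and 35.4% either way. With a filter at 5 FPKM, 21 of 38 members were called higher, beside 2249 of 7664 genes. Since the members were chosen with earlier results of these data known, these shares describe them and are not an independent test. The median member change was 0.18 on the log2 scale, beside 0.003 for all genes. Of the classical NRF2 targets, HMOX1, SRXN1 and TXNRD1 passed, and NQO1, GCLC, GCLM and SLC7A11 did not. This split depends on the processing. With the length and GC trends removed, HMOX1 and SRXN1 lost the call, and GCLC, GCLM and SLC7A11 gained it. Groups did not overlap for 21 members on the high side and 2 on the low side, where 19.7% and 16.3% of all genes were apart. Of all calls at 35 nm, 57.1% were higher as deposited and 44.7% under upper-quartile rescaling, which left 18 members higher and 2 lower, the added one being GPX8. Without 35 nm library 2, GPX8 was also called lower, for 2 in all. At 58 nm against control, 0 of 41 passed, where 4.13% of all genes did, 2.18% higher and 1.95% lower. Against 35 nm, 9 members were lower at 58 nm and 0 were higher, where 11.4% of all genes were called, 3.54% higher and 7.81% lower. The higher share of calls was 52.7% and 31.2% in these comparisons as deposited, and 43.1% and 48.2% under upper-quartile rescaling.

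**Figure D1:**
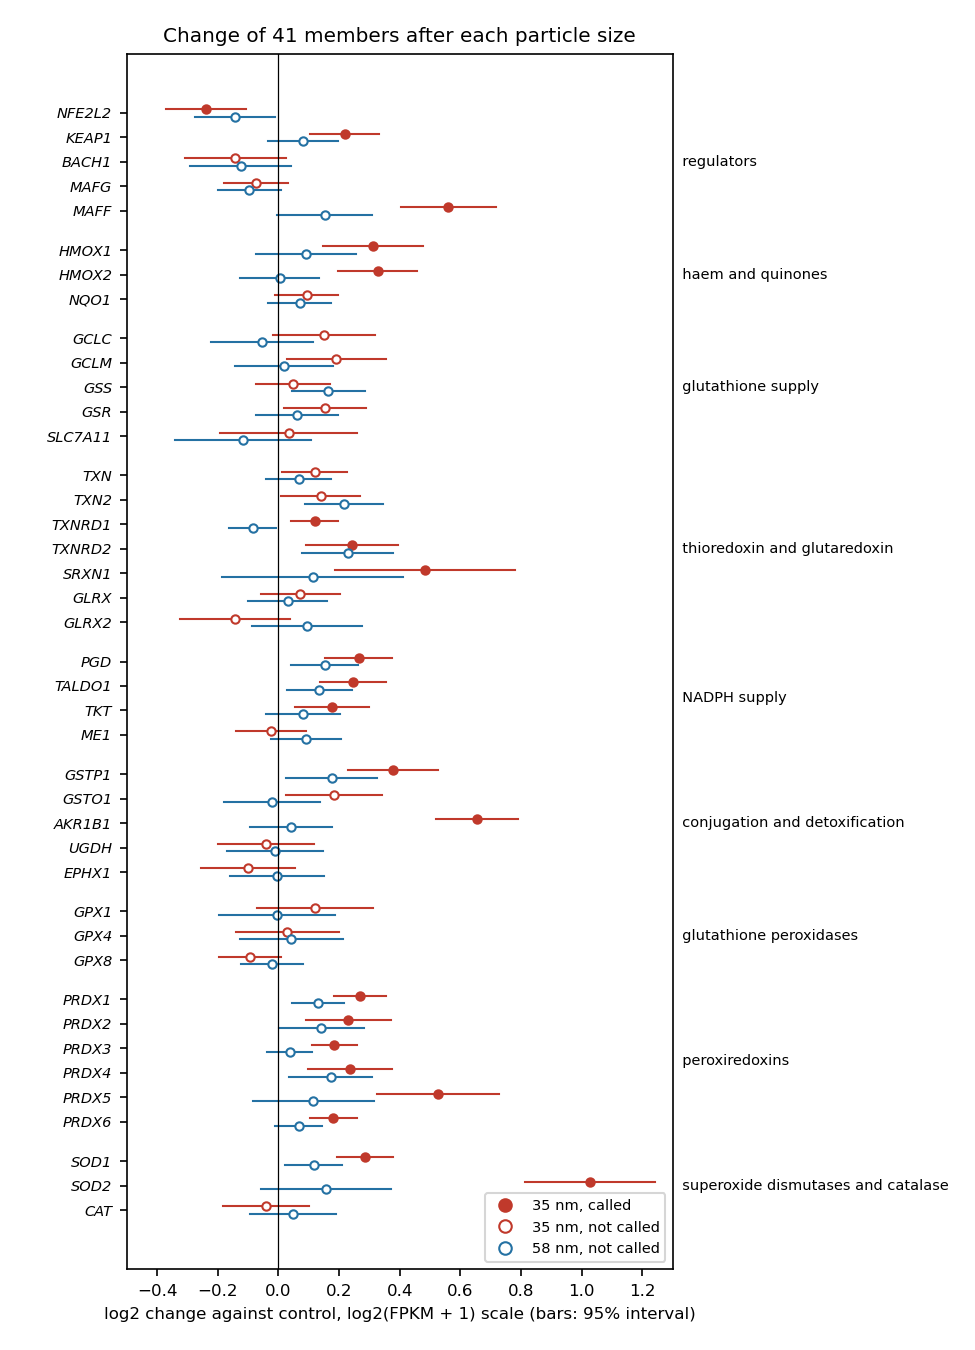
Log2 fold change on the log2(FPKM + 1) scale of the 41 tested members against control (horizontal axis) at 35 nm (red) and 58 nm (blue), grouped by role, with bars for 95% intervals and filled points for adjusted p under 0.05. The filled red points lie to the right of 0, with SOD2 farthest at 1.03, except that of NFE2L2 at -0.24, and no blue point is filled.

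The regulators moved in both directions. NFE2L2 (chr2:177227595-177392697, GRCh38, minus strand) stood at 18.8, 19.1, 21.0 and 19.5 FPKM in the controls, at 16.5, 16.7, 16.4 and 16.1 at 35 nm, and at 17.3, 15.4, 18.6 and 19.4 at 58 nm. All 4 libraries of the 35 nm group lay below all controls, and the 58 nm group overlapped both. The fall at 35 nm was -0.24 ± 0.0610 (log2 fold change ± SE, limma adjusted p = 0.00861), and 17.6% of the exon length of NFE2L2 is shared with another gene on the same strand. KEAP1 stood at 38.7, 35.0, 36.3 and 32.5 FPKM in controls, 42.8, 38.9, 44.4 and 40.2 at 35 nm, and 37.8, 38.5, 36.9 and 37.4 at 58 nm. The 35 nm libraries were again apart from the controls, here on the high side (0.22 ± 0.0534, limma adjusted p = 0.00702). With the length and GC trends removed, however, KEAP1 was not called (0.073, limma adjusted p = 0.283).

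MAFF, a small MAF protein that pairs with NRF2 and with BACH1, changed most among the regulators. The gene lies at chr22:38200767-38216511 (GRCh38, plus strand). Its levels were 8.93, 8.44, 9.26 and 9.96 FPKM in controls, 15.3, 14.2, 13.7 and 12.7 at 35 nm, and 11.8, 10.2, 9.43 and 9.76 at 58 nm. The 35 nm group lay wholly above both other groups, 0.56 ± 0.0723 above control (limma adjusted p = 9.42e-05). The other small MAF in the set, MAFG, had 11.1 ± 0.260 FPKM in the control group, 10.5 ± 0.397 in the 35 nm group and 10.4 ± 0.615 in the 58 nm group (mean ± SD, n = 4), and was not called (limma adjusted p = 0.254 at 35 nm). With the trends removed it was called lower, by -0.18 (limma adjusted p = 0.012). BACH1 was at 11.8, 11.6, 12.9 and 10.3 FPKM in controls, 10.3, 11.2, 9.94 and 10.5 at 35 nm, and 9.20, 10.8, 10.6 and 12.1 at 58 nm. All 3 groups overlapped for BACH1 (limma adjusted p = 0.171 at 35 nm against control).

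To show which members carry the core of the antioxidant response element near their start, the letters TGACNNNGC were searched in RefSeq promoter windows (GRCh38.p14). Both strands were searched, from 250 bases before to 50 after the start that RefSeq gives. That start is not always the gene start of the deposited table: the MAFF window opens at chr22:38201744 and the gene at chr22:38200767. Of the 42 members, 34 had a window, and 7 of these held the core (20.6%), beside 3702 of all 27303 promoters (13.6%). It was found in 4 of the 16 windows of members that rose at 35 nm and in 3 of the other 18. Part of the core is shared with the AP-1 site, so a match can be both. A match is a description of letters, and many known elements lie farther upstream than this window. The windows below run 5′ to 3′ on the strand of the gene, and capitals mark the match or its reverse complement. The stretches lie at chr1:93909436-93909484 (minus strand) for GCLM, chr11:67583726-67583774 (plus) for GSTP1, chr22:38201852-38201900 (plus) for MAFF, chr1:10398843-10398891 (plus) for PGD and chr12:104215660-104215799 (plus) for TXNRD1.
GCLM: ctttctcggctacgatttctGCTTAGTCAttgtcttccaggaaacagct
GSTP1: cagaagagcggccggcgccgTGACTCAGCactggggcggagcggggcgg
MAFF: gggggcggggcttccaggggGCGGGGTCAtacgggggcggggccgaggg
PGD: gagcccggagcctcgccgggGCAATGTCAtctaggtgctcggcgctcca
TXNRD1: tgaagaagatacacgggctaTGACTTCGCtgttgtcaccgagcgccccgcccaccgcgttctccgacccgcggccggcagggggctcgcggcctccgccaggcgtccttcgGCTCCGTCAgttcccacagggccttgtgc
GSTP1, MAFF, PGD and TXNRD1 are the 4 with a match that rose at 35 nm. GCLM has a match and did not pass in that comparison. The remaining windows with a match belong to ME1 and GSTO1, neither of which was called.

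Among the enzymes of haem and quinone metabolism, both haem oxygenases rose at 35 nm and the quinone reductase did not pass. HMOX1, the inducible enzyme that degrades haem, stood at 8.13, 8.48, 9.52 and 9.70 FPKM in controls, 11.1, 10.4, 12.8 and 11.2 at 35 nm, and 10.8, 9.44, 9.66 and 8.59 at 58 nm. The 35 nm group was above all controls, and 58 nm library 1 lay inside the 35 nm range (0.31 ± 0.0764, limma adjusted p = 0.00682). Removing the length and GC trends left 0.15 and an adjusted p of 0.0856 in limma. HMOX2, the constitutive form, stood at 8.42, 8.39, 9.92 and 9.34 FPKM in controls, 11.7, 10.7, 11.96 and 11.8 at 35 nm, and 9.68, 8.79, 9.17 and 8.49 at 58 nm. Its rise of 0.33 ± 0.0605 (limma adjusted p = 0.00122) kept its call under all 23 alternative settings, unlike that of HMOX1, and was 0.21 with the trends removed.

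NQO1, which reduces quinones and is a widely used NRF2 target, is among the more abundant members, and 17.7% of its exon length has another gene on the opposite strand. Its levels were 79.6, 81.1, 84.5 and 81.8 FPKM in controls, 87.7, 86.5, 89.2 and 85.8 at 35 nm, and 95.7, 85.6, 79.9 and 83.1 at 58 nm. All 4 libraries at 35 nm exceeded all controls, by a small margin, and the 58 nm group overlapped both. The difference of 0.094 ± 0.0482 at 35 nm did not pass (limma adjusted p = 0.149), and did pass without 58 nm library 1 (limma adjusted p = 0.0344). OSGIN1 was at 0.524, 1.06, 0.536 and 1.02 FPKM in controls, 1.09, 0.877, 0.982 and 1.09 at 35 nm, and 0.733, 0.632, 0.597 and 1.39 at 58 nm. These values overlap between the groups and were too low to be tested.

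None of the 5 genes of glutathione supply passed at 35 nm in limma or limma-voom, 2 had an unadjusted p under 0.05 (44.9% of all genes did), and all 5 estimates were positive, from 0.034 to 0.19. GCLC and GCLM encode the catalytic and modifier subunits of glutamate-cysteine ligase, the first and rate-limiting step of glutathione synthesis. GCLC was at 3.08, 3.23, 3.25 and 3.77 FPKM in controls, 3.29, 3.96, 4.24 and 3.76 at 35 nm, and 2.81, 3.10, 3.46 and 3.30 at 58 nm. GCLM was at 8.92, 9.52, 9.23 and 9.24 FPKM in controls, 11.7, 10.8, 8.81 and 11.7 at 35 nm, and 8.55, 9.38, 9.71 and 9.83 at 58 nm. For GCLM, 3 of the 35 nm libraries lay above every control and library 3 lay below every control. The limma adjusted p-values were 0.149 for GCLC and 0.0644 for GCLM, and without 35 nm library 3 that of GCLM was 0.00327.

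SLC7A11, the exchanger that imports cystine for glutathione synthesis, was at 15.5, 17.5, 19.2 and 18.7 FPKM in controls, 18.5, 19.5, 14.5 and 20.6 at 35 nm, and 14.1, 17.6, 15.8 and 17.7 at 58 nm. The groups overlapped throughout, and library 3 was again the lowest of the 35 nm group (limma adjusted p = 0.828). Removal of the length and GC trends changed the calls of these genes: GCLM reached 0.36 (limma adjusted p = 0.000308), SLC7A11 0.25 (limma adjusted p = 0.0155) and GCLC 0.23 (limma adjusted p = 0.028). The part of base composition in these results was not tested beyond that. Glutathione synthetase GSS had 13.4 ± 0.726 FPKM in the control group, 13.9 ± 1.04 in the 35 nm group and 15.1 ± 0.649 in the 58 nm group (mean ± SD, n = 4). Glutathione reductase GSR, which regenerates glutathione with NADPH, had 19.8 ± 1.95, 22.1 ± 1.19 and 20.6 ± 0.760 FPKM in the same order, and neither passed. Without control library 1, GSR was called higher at 35 nm (limma adjusted p = 0.0122).

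**Figure D2:**
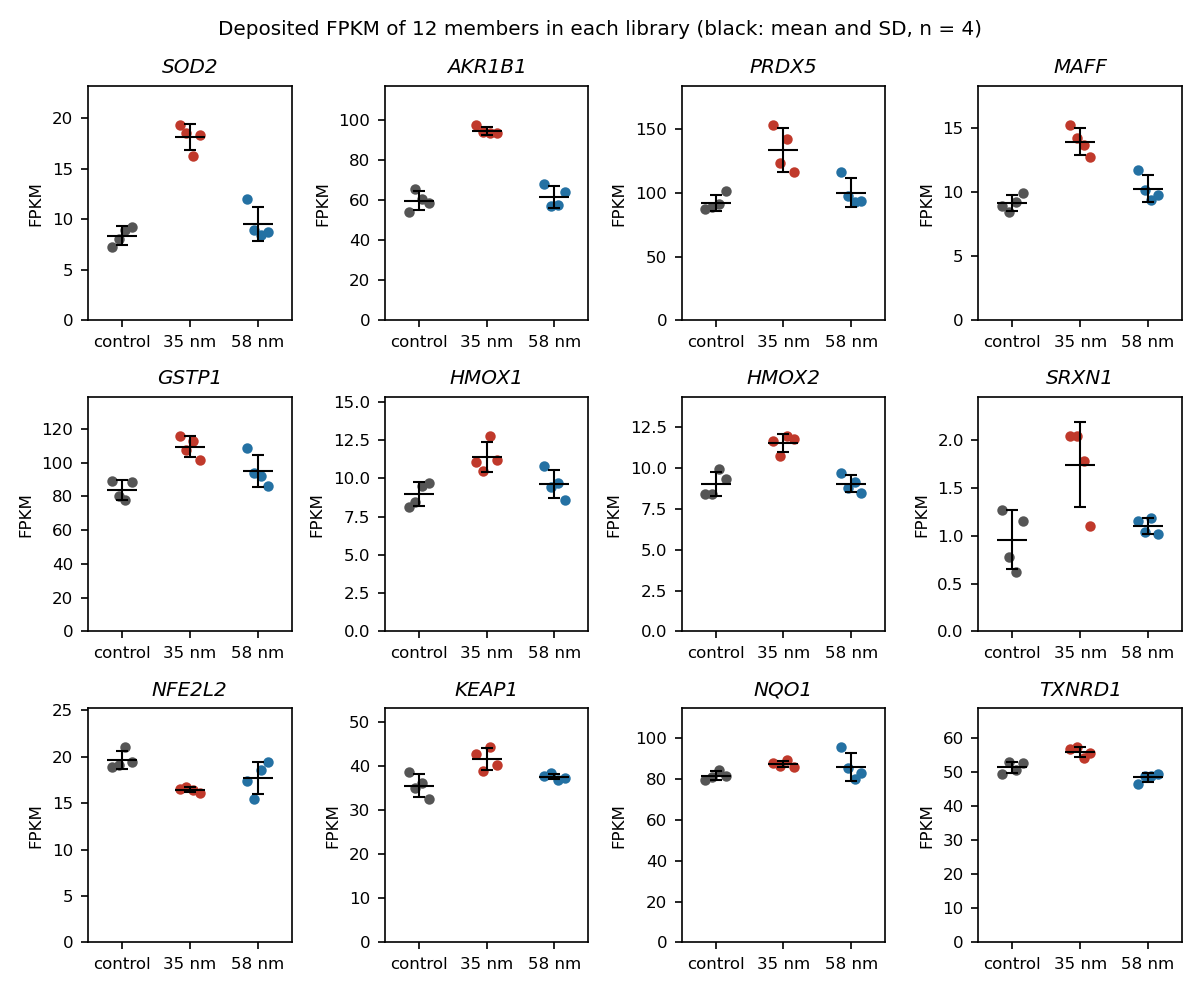
FPKM (vertical axis, from 0) of 12 members in each library of the control, 35 nm and 58 nm groups, with points for the 4 libraries and black marks for the mean and SD. The 35 nm points of SOD2, AKR1B1 and MAFF lie above all points of both other groups, and those of NFE2L2 lie below all controls.

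In the thioredoxin and glutaredoxin system, 3 of 7 members rose at 35 nm: the reductases TXNRD1 and TXNRD2, which keep cytosolic and mitochondrial thioredoxin reduced, and sulfiredoxin SRXN1, which repairs over-oxidised peroxiredoxins. TXNRD1 was at 49.4, 52.9, 50.6 and 52.4 FPKM in controls, 56.6, 57.2, 54.1 and 55.4 at 35 nm, and 46.4, 48.7, 48.9 and 49.3 at 58 nm. The 3 groups did not overlap: 35 nm was the highest and 58 nm the lowest. The rise at 35 nm was small, 0.12 ± 0.0361 (limma adjusted p = 0.0207), was lost without any of 4 single libraries (limma adjusted p from 0.0539 to 0.0626) and had the opposite sign under quantile normalization (-0.0027). Upper-quartile rescaling (0.074, limma adjusted p = 0.138) and limma-voom (0.097, adjusted p = 0.0715) also lost the call. With the length and GC trends removed, the rise was 0.18 (limma adjusted p = 0.000811).

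SRXN1 was at 1.27, 0.780, 0.618 and 1.16 FPKM in controls, 2.04, 2.04, 1.78 and 1.10 at 35 nm, and 1.15, 1.04, 1.19 and 1.02 at 58 nm. Library 4 of the 35 nm group lay within the control range, and the other 3 lay above it. The estimate of 0.48 ± 0.138 (limma adjusted p = 0.0159) rests on 18 to 58 reads per library, and 85.0% of the exon length of SRXN1 is shared with another gene on the same strand. On recovered reads limma-voom gave 0.85 (adjusted p = 0.00885), and removal of the length and GC trends gave 0.37 (limma adjusted p = 0.0567). Leaving out control library 3 or 35 nm library 1 took the limma adjusted p to 0.0506 and 0.0512. The reductase TXNRD2 had 6.38 ± 0.129 FPKM in controls and 7.77 ± 1.02 at 35 nm (mean ± SD, n = 4), a rise of 0.24 ± 0.0701 (limma adjusted p = 0.0165) that was 0.13 with the trends removed (0.163). Thioredoxin TXN, mitochondrial TXN2 and the glutaredoxins GLRX and GLRX2 did not pass, with estimates from -0.14 to 0.14. For TXN2, all 35 nm libraries lay above all controls. TXN2 was called with only the 8 libraries compared (limma adjusted p = 0.0453) and with the replicate block (0.0459). TXN, the general electron donor of this system, was at 103 ± 5.55 FPKM in the control group, 112 ± 6.73 in the 35 nm group and 108 ± 3.55 in the 58 nm group (mean ± SD, n = 4), and 7 pseudogenes carry its name.

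Of the 4 genes of NADPH supply, 3 rose at 35 nm. These were the enzymes of the pentose phosphate pathway: PGD went from 59.9 ± 3.39 to 72.2 ± 4.01 FPKM, TALDO1 from 48.8 ± 0.781 to 58.0 ± 2.45 and TKT from 41.7 ± 0.943 to 47.4 ± 3.40 (mean ± SD, n = 4). PGD, the dehydrogenase that makes NADPH, rose by 0.26 and kept its call under all 23 alternatives (limma adjusted p = 0.00161), with 0.16 after trend removal and 0.13 under quantile normalization. TALDO1 rose by 0.25 (limma adjusted p = 0.00222), with 0.11 and 0.13 under the same settings. TKT had the largest p of the 3 (0.18, limma adjusted p = 0.027), and leaving out any of 5 single libraries took its adjusted p to between 0.0598 and 0.0818. Malic enzyme ME1 did not pass.

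Conjugating and detoxifying enzymes were uneven, with 2 of 5 called. AKR1B1 (chr7:134442350-134459284, GRCh38, minus strand), which reduces aldehydes and glucose, was at 54.3, 65.5, 60.8 and 58.7 FPKM in controls, 97.5, 93.8, 93.3 and 93.6 at 35 nm, and 68.0, 57.0, 57.5 and 64.3 at 58 nm. The 35 nm group lay far above both others, which overlapped (0.65 ± 0.0629, limma adjusted p = 1.05e-05), and 7 pseudogenes carry its name. GSTP1, the glutathione S-transferase of the pi class, was at 89.2, 80.1, 77.8 and 88.7 FPKM in controls, 116, 107, 112 and 102 at 35 nm, and 109, 93.7, 92.0 and 86.2 at 58 nm. Again the 35 nm group was apart from the controls (0.38 ± 0.0692, limma adjusted p = 0.00115), while 58 nm library 1 lay inside the 35 nm range. The rise of GSTP1 was 0.19 with the length and GC trends removed and 0.24 under quantile normalization, still called in both. GSTO1, UGDH and EPHX1 did not pass, with estimates of 0.18, -0.041 and -0.10. GSTO1 was called with a filter at 5 FPKM (limma adjusted p = 0.0426), and without control library 3 (0.0298) or 58 nm library 1 (0.0448).

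The peroxide-removing enzymes split by family. All 6 peroxiredoxins, thiol peroxidases that mostly take their electrons from thioredoxin, rose at 35 nm, by 0.18 to 0.53 with a median of 0.23. None of the 3 glutathione peroxidases, GPX1, GPX4 and GPX8, passed in limma or limma-voom, and 0 had an unadjusted p under 0.05 (44.9% of all genes did), with estimates from -0.093 to 0.12. The lipid hydroperoxide reductase GPX4 was at 82.5 ± 4.78 FPKM in the control group, 84.7 ± 10.8 in the 35 nm group and 85.0 ± 4.59 in the 58 nm group, and GPX1 at 104 ± 5.69, 113 ± 8.23 and 104 ± 15.3 (mean ± SD, n = 4). PRDX5, found in mitochondria, peroxisomes and cytosol, had the largest change: 87.1, 89.0, 91.4 and 102 FPKM in controls, 153, 123, 143 and 116 at 35 nm, and 117, 97.7, 93.2 and 93.7 at 58 nm. Its 35 nm libraries were spread widely yet all above the controls (0.53 ± 0.0925, limma adjusted p = 0.00103). PRDX1 went from 109 ± 0.923 to 131 ± 4.67 FPKM and mitochondrial PRDX3 from 48.9 ± 1.51 to 55.6 ± 1.000 (mean ± SD, n = 4), both without overlap (limma adjusted p = 0.000274 and 0.00131). PRDX1 shares 24.9% of its exon length with MMACHC on the opposite strand, PRDX2 has 14.1% opposite another gene, and the labels do not say whether reads kept their strand. The difference between the families was not tested. Under quantile normalization, 2 of the 6 peroxiredoxins were called and the median was 0.12, and 4 were called with the length and GC trends removed (median 0.17). GPX8 was called lower under quantile normalization and upper-quartile rescaling.

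SOD2 and SOD1, which turn superoxide into hydrogen peroxide in mitochondria and cytosol, both rose at 35 nm, and catalase did not pass. SOD2 (chr6:159669057-159745186, GRCh38, minus strand) was at 7.24, 8.09, 8.98 and 9.23 FPKM in controls, 19.3, 18.5, 16.2 and 18.3 at 35 nm, and 11.96, 8.93, 8.43 and 8.70 at 58 nm. The 35 nm group lay far above both others, and 58 nm library 1 was the highest outside it. The change of 1.03 ± 0.0995 (limma adjusted p = 1.14e-05) is the largest in the set. SOD2 is also a well known target of NF-kB, besides being an antioxidant enzyme. SOD1 went from 47.0 ± 0.528 to 57.5 ± 2.05 FPKM (mean ± SD, n = 4; 0.28, limma adjusted p = 0.000323), a rise that was 0.17 with the trends removed and 0.16 under quantile normalization. CAT, which breaks down hydrogen peroxide in peroxisomes, was at 10.3, 10.6, 9.34 and 10.96 FPKM in controls, 10.9, 10.4, 9.24 and 9.53 at 35 nm, and 9.68, 10.6, 11.2 and 11.3 at 58 nm. The groups overlapped for CAT (-0.040 ± 0.0657, limma adjusted p = 0.669).

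Every 35 nm library had a median member level above the controls, and libraries 1 and 3 had the larger shifts. The median member deviated from the control mean by 0.20, 0.13, 0.21 and 0.13 in 35 nm libraries 1 to 4, on the log2 scale, and by -0.031 to 0.023 in the controls. The GC correlation was also larger in 35 nm libraries 1 and 3 (rho 0.425 and 0.555) than in libraries 2 and 4 (0.19 and 0.151). At 58 nm, library 1 stood at 0.15 and the other libraries at 0.040 to 0.055. In the 58 nm group too, the library with the GC and length shift had the highest member median, and the part of these shifts in the library medians was not tested.

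**Figure D3:**
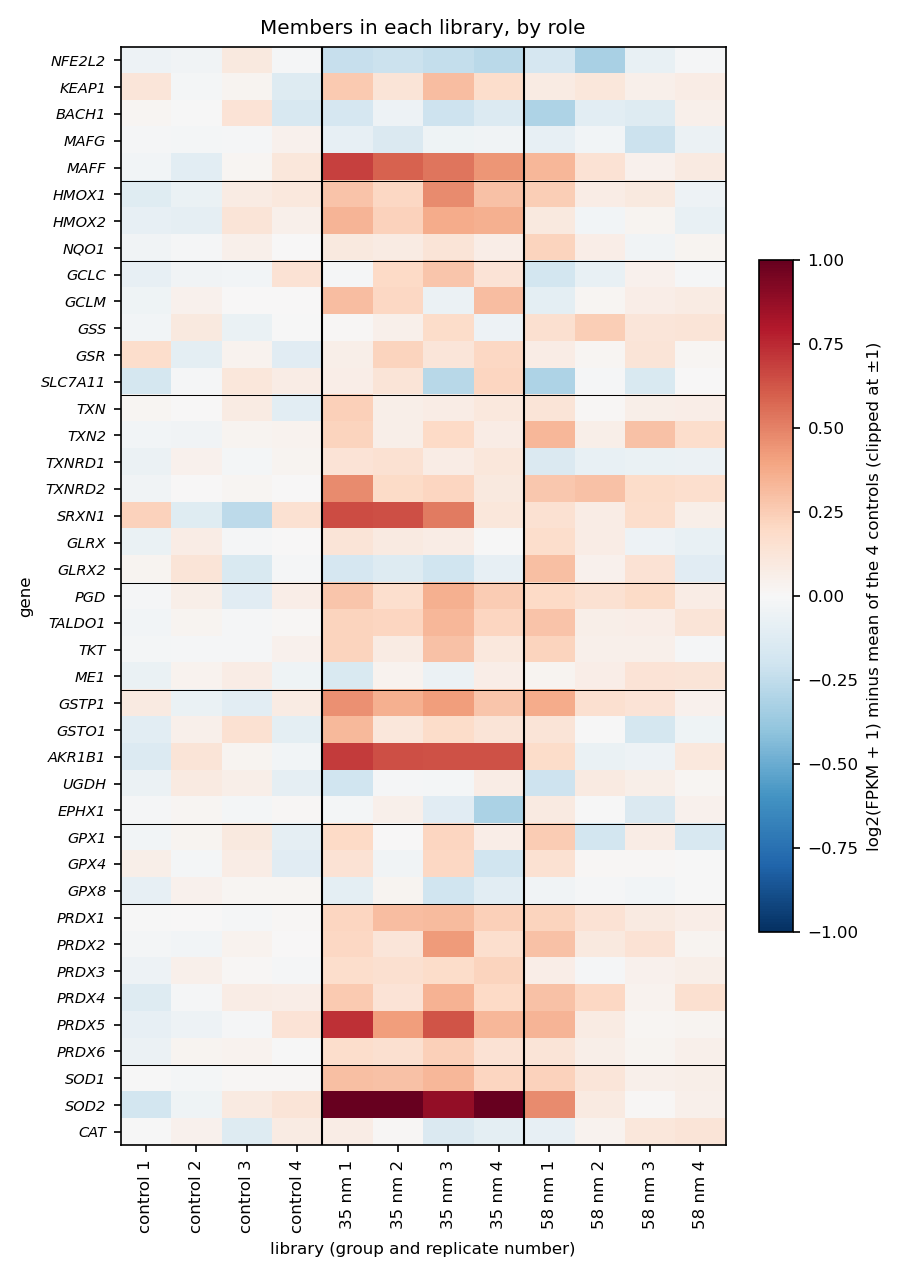
Log2 deviation of each member from its control mean, on the log2(FPKM + 1) scale, in each of the 12 libraries, with members grouped by role and colours clipped at 1 in either direction. The 4 libraries at 35 nm share raised SOD2, AKR1B1, MAFF and peroxiredoxins, and 58 nm library 1 has the highest SOD2 and MAFF of the 58 nm group.

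At 58 nm against control, no member passed in limma, with 12 at an unadjusted p under 0.05 (20.1% of all genes) and 1, TXNRD2, called by limma-voom on recovered reads. The median change was 0.067, beside 0.01 for all genes. Groups did not overlap for 7 members on the high side and 2 on the low side, where 7.56% and 5.92% of all genes were apart. Without 35 nm library 1, TXNRD2 was called (limma adjusted p = 0.0278), and without 58 nm library 2, TXN2 was (0.0276). Nearest to the threshold were TXN2, PRDX1 and TXNRD2. Mitochondrial thioredoxin TXN2 was at 26.9 ± 0.743 FPKM in controls and 31.5 ± 2.74 at 58 nm (0.22, limma adjusted p = 0.064), and its reductase TXNRD2 was at 6.38 ± 0.129 and 7.65 ± 0.369 (0.23, limma adjusted p = 0.0908; mean ± SD, n = 4). PRDX1 differed from control by 0.13 (limma adjusted p = 0.0891). For the genes that led at 35 nm, the 58 nm estimates and 95% intervals were 0.16 (-0.059 to 0.37) for SOD2, 0.042 (-0.094 to 0.18) for AKR1B1 and 0.15 (-0.0037 to 0.31) for MAFF. The upper ends for SOD2 and MAFF exceed the median member change at 35 nm, 0.177, and that for AKR1B1 just reaches it (0.178). A rise of that size at 58 nm thus lies within the intervals of SOD2, MAFF and AKR1B1. NFE2L2 was -0.14 (-0.28 to -0.013), with an adjusted p of 0.207 in limma.

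The direct comparison of the particle sizes gave 9 members lower at 58 nm than at 35 nm: AKR1B1, HMOX2, MAFF, PRDX1, PRDX3, PRDX5, SOD1, SOD2 and TXNRD1. All 9 are among the 20 that rose at 35 nm, a comparison that uses the same 35 nm libraries. Groups did not overlap for 8 members on the low side and 0 on the high side, where 9.9% and 6.29% of all genes were apart, and 21 members had an unadjusted p under 0.05 in either direction (27.8% of all genes). SOD2 differed by -0.87 ± 0.0995 (limma adjusted p = 0.000273), AKR1B1 by -0.61 ± 0.0629 (0.000114) and MAFF by -0.41 ± 0.0723 (0.00369). HMOX2 was lower by -0.32 ± 0.0605 (limma adjusted p = 0.00496). AKR1B1, HMOX2, MAFF and SOD2 kept this call under all 23 alternatives, TXNRD1 in 22, PRDX3 and PRDX5 in 21, SOD1 in 13 and PRDX1 in 3. SOD1 lost it without 35 nm library 1, 2 or 3 or 58 nm library 2, 3 or 4 (limma adjusted p from 0.0504 to 0.079), PRDX5 without 58 nm library 4 (0.0513), PRDX3 without 58 nm library 2, and PRDX1 without any single library other than 58 nm library 1. The count is 14 without 58 nm library 1, which adds GSTO1, GSTP1, HMOX1, PRDX6 and TALDO1. Without 58 nm library 4, 6 were lower and 1, GLRX2, was higher. For NQO1 the difference was -0.023 with a 95% interval of -0.13 to 0.081, and for CAT it was 0.089 with an interval of -0.053 to 0.23.

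**Figure D4:**
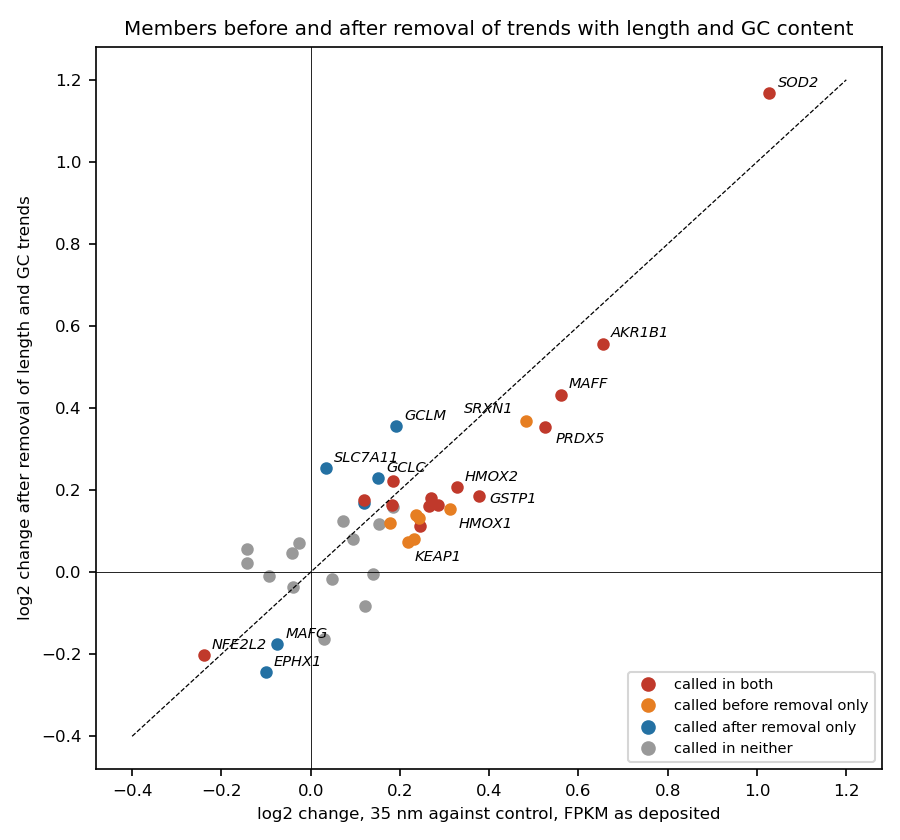
Log2 fold change of each tested member at 35 nm against control as fitted (horizontal axis) and after removal of each library's trends with gene length and GC content (vertical axis), coloured by whether it was called before, after or in both. SOD2, AKR1B1 and MAFF lie far from 0 on both axes, and GCLM, SLC7A11 and GCLC lie higher on the vertical axis than on the horizontal one.

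With the length and GC trends removed, 17 members were higher and 3 lower at 35 nm, and 13 of the 20 rises were shared with the values as deposited. Those that lost the call were HMOX1, KEAP1, SRXN1 and TXNRD2, with PRDX2 (0.23 to 0.082), PRDX4 (0.24 to 0.14) and TKT (0.18 to 0.12; limma adjusted p = 0.224, 0.0685 and 0.0963). GCLC, GCLM, SLC7A11 and TXN gained it, TXN at 0.17 (limma adjusted p = 0.0107), and MAFG and EPHX1 were called lower, EPHX1 at -0.24 (0.0153). Between 58 nm and 35 nm, trend removal gave 12 lower and 1 higher member. It added GCLC (-0.24), GCLM (-0.27), PRDX6 (-0.11) and SLC7A11 (-0.27) as lower, with limma adjusted p-values of 0.0421, 0.00622, 0.0355 and 0.0246. TXN2 was added as higher (0.16, limma adjusted p = 0.047), and PRDX1 lost its call (-0.088, 0.0929). The rises that held under all 23 alternatives are AKR1B1, GSTP1, HMOX2, MAFF, PGD, PRDX1, PRDX5, SOD1 and SOD2, together with the fall of NFE2L2.

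A further list of 96 genes of the same pathways, 77 of them tested, gave 17 higher and 8 lower at 35 nm (22.1% and 10.4%), with a median of 0.016. Their share higher is near the 20.2% of all genes, where 15.2% of all genes were lower. Without control library 3, 5 of the list were lower. The smallest p-values there belonged to TXNIP, which binds and inhibits thioredoxin and went from 22.4 ± 1.03 to 14.2 ± 0.702 FPKM (-0.62, limma adjusted p = 1.23e-06), and to the NRF2 relative NFE2L1 (40.3 ± 2.05 to 51.1 ± 0.543 FPKM, 0.33, limma adjusted p = 5.88e-05). PARK7, a redox-sensitive protein also called DJ-1, rose by 0.52 and the aminopeptidase LAP3 fell by 0.39 on the log2 scale (limma adjusted p = 0.000146 and 0.000179). At 58 nm, 2 of the 77 were higher and 3 lower than control (2.6% and 3.9%), where 2.18% and 1.95% of all genes were. Only 1 was higher without control library 2, 3 or 4 or 58 nm library 1, 2 or 3. LAP3 was at 35.1 ± 1.95 FPKM in controls and 21.5 ± 1.28 at 58 nm (-0.68, limma adjusted p = 6.23e-06), and TXNIP at 18.1 ± 0.637 (-0.29, limma adjusted p = 0.00325). The autophagy receptor SQSTM1 was also lower (-0.17) and mitochondrial isocitrate dehydrogenase IDH2 higher (0.25; limma adjusted p = 0.0417 and 0.035). Against 35 nm, 4 were higher and 16 lower at 58 nm (5.19% and 20.8%), where 3.54% and 7.81% of all genes were. The lower count was 9 without 35 nm library 1 or 3 or 58 nm library 3 or 4. The higher count was 2 without control library 3 or 4, 35 nm library 3 or 58 nm library 2, and 1 without 58 nm library 3 or 4. Among the named genes there, TXNIP was higher (0.33) and NFE2L3, NFE2L1 and LAP3 were lower (-0.33, -0.26 and -0.30; limma adjusted p = 0.00105, 0.00115, 0.0018 and 0.00462).

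Of 31 genes for sources of oxidants, 13 were expressed enough to test, and 5 rose and 0 fell at 35 nm, also in limma-voom. That is 38.5% higher, where 20.2% of all genes were higher and 15.2% lower. CYBA, the p22phox subunit shared by NADPH oxidases, went from 8.77 ± 1.12 to 12.95 ± 1.28 FPKM (0.52, limma adjusted p = 0.00221) and was lower at 58 nm than at 35 nm (-0.37, limma adjusted p = 0.0361). Aldehyde oxidase AOX1, the GTPase RAC2 and CYB5R3 rose by 0.36, 0.23 and 0.24 (limma adjusted p = 0.00429, 0.00628 and 0.00979). At 58 nm against control 0 of the 13 passed in limma or limma-voom, with 2 at an unadjusted p under 0.05 (20.1% of all genes).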

How the data were processed

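RNA sequencing of 12 libraries of hCMEC/D3 cells was analysed in 3 groups of 4. The authors deposited FPKM values per gene for 58735 genes, with the gene length beside them as another column. Bowtie 0.12.2 and hg19 are the tool and build named, per the submitters' processing notes, but identifiers, positions and lengths of 58735 of 58735 genes equalled GENCODE 29, an annotation of GRCh38, and coordinates are given as in that table. The labels give no counting tool, strand setting or rule for multiply aligned reads. Dates stood in place of 27 gene names, which were restored by identifier. FPKM times gene length, divided by the smallest such product above 0 in the library (taken as 1 read), gave whole reads for all values (tolerance 0.01 reads), with totals from 9472317 to 10678269 per library.

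Values were tested as log2(FPKM + 1) with limma 3.58.1 in R 4.3.3 (trended, robust prior), with 3 group means over all 12 libraries. The test covered 12176 genes whose mean reached 1 FPKM, and two-sided p-values were adjusted by Benjamini-Hochberg over all of them in each of 3 comparisons. A gene rose or fell where adjusted p was under 0.05. The scale understates the change of low genes. The 23 alternatives comprise 12 that leave out 1 library each and 11 others: pseudocount, filter, scaling, limma-voom with TMM on recovered reads, the 8 libraries compared, loess removal of length and GC trends, and a replicate block.

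Members and lists were chosen with earlier results of these data known. Values of every library are given for members called in any comparison with a difference of at least 0.3 in log2(FPKM + 1), and for a panel of NFE2L2, KEAP1, BACH1, HMOX1, NQO1, GCLC, GCLM, SLC7A11, TXNRD1, SRXN1, OSGIN1, SOD2 and CAT. Of the other lists, the 4 called genes with the smallest p and a mean of at least 5 FPKM are named per comparison. A second identifier also named SOD2 had almost no reads and is not described. Promoter sequences are from RefSeq (GRCh38.p14).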

Additional observations from a re-analysis of the deposited data

Results flagged for a closer look

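In 6 of the 126 groups of 4 libraries checked (42 members in 3 groups), 1 library lay far from the others by Dixon's ratio, where chance gives about 1 group in 20. SOD2 was at 11.96 FPKM in library 1 of the 58 nm group and at 8.43 to 8.93 in the other libraries of that group. GPX4 was at 91.9 FPKM in the same library, beside 82.05 to 83.1. AKR1B1 was at 97.5 FPKM in 35 nm library 1, beside 93.3 to 93.8, and TALDO1 at 61.7 in 35 nm library 3, beside 56.6 to 56.9. Among controls, library 4 stood apart for MAFG, at 11.5 FPKM beside 10.99 to 11.01, and for TKT, at 43.1 beside 41.1 to 41.4.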

How the results depend on the processing

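At 35 nm against control, the 20 higher members were 13 under quantile normalization and 17 to 22 when any 1 library was left out. The 1 lower member became 2 under upper-quartile rescaling, quantile normalization or removal of the length trend, 3 with the length and GC trends removed, 4 when a replicate block was added to that, and 1 to 2 without single libraries. The 8 lower genes of the further pathway list were 5 with no filter or with the replicate block, 13 with limma-voom and 5 to 9 without single libraries, and the 17 higher were 12 to 19. At 58 nm against control, the 0 higher members became 1 with a filter at 5 FPKM or with the replicate block (TXN2, adjusted p = 0.0389 and 0.0378 in limma), with limma-voom or with the 8 libraries compared (TXNRD2, 0.0418 and 0.0409), and were 0 to 1 without single libraries, while the lower count was 0 to 0. Further pathway genes there (2 higher, 3 lower) were 1 higher with no filter, 5 lower with both trends removed, and 1 to 3 and 2 to 3 without single libraries.

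At 58 nm against 35 nm, the 0 higher members became 1 with limma-voom (GLRX2), with both trends removed (TXN2) or with that and the block (TXN2). The 9 lower became 5 under quantile normalization, and leaving out single libraries gave 0 to 1 higher and 6 to 14 lower. The further list (4 higher, 16 lower) had 1 higher and 8 lower with no filter. Its higher count was 2 at 5 FPKM or with the block, 7 under upper-quartile rescaling and 1 with the 8 libraries compared, and without single libraries it was 1 to 4 higher and 9 to 18 lower. TXNRD1 at 35 nm reversed under quantile normalization (-0.0027, limma adjusted p = 0.971), and GPX4 with the block and trend removal (-0.16, adjusted p = 0.022 in limma, beside 0.030 and 0.797 as deposited). The cause of these shifts was not tested.

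Libraries of the same number deviated together with correlations of -0.065 to 0.159, and of different numbers with -0.156 to 0.114. The highest, 0.159, was between library 1 of the 35 nm group and library 1 of the 58 nm group. The ranges overlap and show no general pairing by number. They cannot settle whether libraries shared a batch, and the labels do not say what the numbers mark. With the replicate block, 21 members were higher and 1 lower at 35 nm, 1 and 0 at 58 nm, and 0 and 9 between the particles. Depth limits SRXN1 and OSGIN1, with 18 to 58 and 19 to 49 reads per library.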
